A study of Saccharomyces cerevisiae with 12 samples.

Results

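The 8 genes described here encode the channel through which budding yeast moves secretory proteins into the endoplasmic reticulum (ER). They are SEC61, SSS1, SBH1 and SBH2, which encode pore subunits, and SEC62, SEC63, SEC66 and SEC72, which encode the complex that joins the pore in post-translational import. They were picked by name, as the rows with the 8 corresponding systematic names, and make up 8 of the 6612 features quantified. The symbols paired with these names in the RefSeq annotation of R64 are the same 8.

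RNA-seq of poly(A)-selected RNA was compared between DUS KO, the dus1Δ dus2Δ dus3Δ dus4Δ quadruple mutant, and WT, strain BY4741, with 3 libraries each. The growth phase of all cultures is given as mid-log, while the study's methods give an optical density for the culture and name no phase. By its genotype DUS KO lacks the dihydrouridine synthases, the enzymes that reduce uridine to dihydrouridine (D). It was made by mating of a dus1Δ dus2Δ to a dus4Δ dus3Δ strain and dissection of tetrads. It is thus a product of a cross and not a direct derivative of the WT culture. The labels do not say that replicates were separate cultures, so p-values measure only the spread between these libraries.

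Sec61, a membrane protein with a lateral gate, forms the pore together with the small subunits Sss1 and Sbh1. A second pore is built from Ssh1, a relative of Sec61, with Sss1 and Sbh2, a relative of Sbh1, and it works mainly beside the ribosome during translation. Sec62, Sec63, Sec66 and Sec72 attach to the Sec61 pore and let finished proteins enter, while the lumenal HSP70 Kar2, recruited by the J-domain of Sec63, pulls on the incoming chain.

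The depth was 656162 to 5500084 estimated counts per library in DUS KO, where replicate 3 was the shallowest, and 4336794 to 5652837 in WT. DUS1 and DUS4 had 0 counts over the DUS KO libraries, against 308 and 470 over the WT libraries, and DUS2 had 3 against 442. DUS3, which DUS KO should also lack, had 123 estimated counts in DUS KO and 323 in WT, and the groups overlapped in normalized counts. These counts were not whole in 5 of the 6 libraries, as happens where reads are divided between features. Whether such division accounts for the DUS3 counts in DUS KO was not tested. LYS2 had 3 counts in DUS KO and 564 in WT, so the strains also differed at a gene other than the DUS genes. Effects of DUS loss and of other differences between the strains cannot be told apart in this comparison. LEU2 and URA3, which BY4741 lacks, had 0 counts in all 6 libraries, and HIS3, of which BY4741 carries a partial deletion, had 296 in DUS KO and 398 in WT. MET17, which BY4741 also lacks, had 618, 290 and 37 counts in DUS KO, and in WT it had 0 in replicate 1 but 92 and 155 in replicates 2 and 3. These WT libraries, replicates 2 and 3, thus went against the BY4741 genotype at this gene, and the results below were also computed with WT replicate 1 as the only WT library.

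At an adjusted p under 0.05, edgeR's quasi-likelihood test called 0 of the 8 genes different between DUS KO and WT. It called 0.085% of the 5884 features tested, which is 5 features that included DUS1, DUS2, DUS4 and LYS2. At an unadjusted p under 0.05 the test found 1 of the 8, SBH2, higher in DUS KO. Of the features tested, 3.33% were higher, 4.93% lower and 8.26% either. DESeq2 called 0 of the 5 members to which it gave an adjusted p, where it called 4.42% of 1334 features, and limma-voom called 0 of 8 members but also 0 of all 5884 features. In the edgeR test, log2 fold changes of DUS KO over WT ran from -0.42 in SEC61 to 0.40 in SBH2. Of these, 2 of 8 were above 0 (4 with total counts alone, 5 on log2(TPM + 1)), beside 48.4% of the features tested. Their median was -0.14, beside -0.02 over all features tested, but 0.05 beside 0.16 with total counts alone and 0.17 beside 0.22 on log2(TPM + 1). With WT replicate 1 as the only WT library it was 0.078 beside 0.029, with 5 of 8 above 0. The DUS KO libraries lay above all WT libraries for SBH2, in normalized counts and in TPM, and below them for 0 of 8 members, where 7.68% of the features tested lay below in normalized counts and 2.01% in TPM. These are bulk libraries, in which fewer cells that express a gene and less RNA per cell cannot be told apart.

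The members differed far more from each other than between the strains. In TPM, a level per effective length that has the same sum in every library and lets genes be compared, SBH2 had 4256, 3470 and 4033 in DUS KO and 2716, 2157 and 2288 in WT. SSS1 had 257, 212 and 247 TPM in DUS KO and 177, 218 and 149 TPM in WT. SEC62 had 57.9, 48.3 and 58.1 TPM in DUS KO and 61.6, 50.9 and 41.8 TPM in WT. Each of the steps from SBH2 to SSS1 and from SSS1 to SEC62 was larger than the spread over all 6 libraries. SBH1, with 51.5, 48.2 and 64.3 TPM in DUS KO and 33.4, 35.8 and 64.5 TPM in WT, overlapped with SEC62. SEC72 lay below both in every library, with 24.0, 24.1 and 18.4 TPM in DUS KO and 19.2, 20.2 and 16.3 TPM in WT. The lowest levels were those of SEC63, SEC66 and SEC61, whose ranges overlapped, and the highest libraries of SEC63 and SEC61 reached the lowest of SEC72. SEC63 had 14.8, 16.6 and 8.80 TPM in DUS KO and 12.5, 14.3 and 16.6 TPM in WT. SEC66 had 11.1, 16.0 and 7.76 TPM in DUS KO and 9.43, 12.1 and 13.0 TPM in WT. SEC61, which encodes the pore itself, had 9.05, 10.8 and 11.03 TPM in DUS KO and 7.55, 7.95 and 18.4 TPM in WT.

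**Figure D1:**
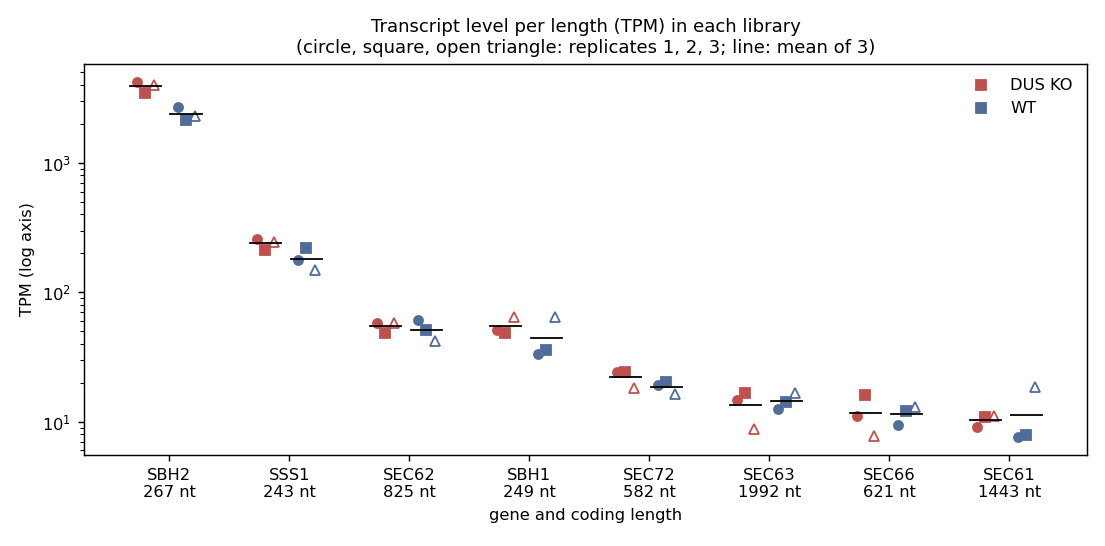
Transcript level per length (TPM, log axis) of the 8 translocon genes, ordered by their mean in DUS KO, with DUS KO left of WT, 1 point per library and a line at each mean of 3. SBH2 stands at 2157 to 4256 TPM, SSS1 at 149 to 257 TPM, and SEC61 at 7.55 to 18.4 TPM.

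In TPM, the transcripts of the pore were therefore not at equal levels. SSS1 exceeded SEC61 by 28.4, 19.6 and 22.4 times in the DUS KO libraries and by 23.4, 27.5 and 8.12 times in the WT libraries, as ratios of TPM within a library, which do not depend on the scaling between libraries. For SBH1 over SEC61 the ratio was 5.70, 4.47 and 5.83 in DUS KO and 4.43, 4.50 and 3.51 in WT. SSH1 (YBR283C), the channel protein of the other pore, was at 6.16, 3.80 and 4.33 times SEC61 in DUS KO and at 5.34, 3.88 and 2.11 times in WT. The low ratios of SSS1 and SSH1 came from WT replicate 3, where SEC61 was high. Counts of another feature, YLR379W, completed those of SEC61 to whole numbers. They were 21.7, 8.23 and 0 in DUS KO and 39.7, 53.8 and 45.3 in WT. Levels of SEC61 with these counts added, and ratios over such levels, were not computed. SSS1 and SBH1 are shorter than 300 nt, and SEC61 and SSH1 are longer. Tested features under 300 nt had a median of 79.6 TPM in DUS KO and 62.0 TPM in WT. For the longer ones it was 4.91 TPM in DUS KO and 3.83 TPM in WT. How far the ratios of SSS1 and SBH1 to SEC61 follow from length was not tested.

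SBH2 (YER019C-A) occupies chromosome V, 194273 to 194539, on the minus strand of R64, as a single coding exon of 267 nt. Its normalized counts (CPM, counts scaled to library size with edgeR's TMM factors) were 2693, 2565 and 2857 in DUS KO and 2342, 1983 and 1811 in WT. All 3 DUS KO libraries lay above the WT libraries, as did those of 7.82% of the features tested. The log2 fold change was 0.40 (standard error 0.17, 95% interval 0.04 to 0.76), a 1.32-fold higher level with an unadjusted p of 0.0305 and an adjusted p of 0.550 in edgeR's test, and so it did not pass the threshold. Each of 19 alternatives gave a positive value, from 0.20 with WT replicate 1 as the only WT library to 0.72 on log2(TPM + 0.1). All of them draw on the same 6 libraries. Apart from the fit on WT replicate 1 alone, their adjusted p ran between 0.144 in DESeq2 and 0.975 in edgeR's test without DUS KO replicate 1. Their unadjusted p ran from 0.0011 with total counts alone to 0.114 with the length trend removed, both in edgeR's test. The median of all features on log2(TPM + 0.1) was itself 0.29. On TPM the 3 DUS KO libraries also lay above the WT libraries, where those of 18.6% of features did so. SBH2 is among 281 tested features shorter than 300 nt, whose median log2 fold change was 0.09, beside -0.02 for the 5603 longer ones. With a trend in coding length removed, SBH2 was at 0.30.

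The level of SBH2 was high among all features. It ranked 51, 49 and 55 by TPM in DUS KO and 59, 82 and 64 in WT, of 6612, while tested features under 300 nt had a median of 79.6 TPM in DUS KO and 62.0 TPM in WT. SBH1 (YER087C-B; chromosome V, 332582 to 332830, minus strand; 249 nt) ranked 754, 721 and 645 in DUS KO and 839, 801 and 566 in WT. Within libraries, SBH2 exceeded SBH1 by 82.6, 72.0 and 62.7 times in DUS KO and by 81.2, 60.3 and 35.4 times in WT. The counts of both genes were whole numbers in all 6 libraries, so no count was split in fractions with another feature. Whole counts alone do not show that no read could fit another feature. The longest stretch that the 2 coding sequences share is 14 nt, shown here in capitals within 30 nt of each, from the sense strand of R64, because relatives with longer shared stretches could exchange reads.
SBH1, chrV:332626-332655: ttctagcgGTCGGTTTCATCTTttctgttg
SBH2, chrV:194314-194343: tcctatctGTCGGTTTCATCTTctccgtga
The longest stretch of the SBH2 coding sequence found anywhere else in the genome was 17 nt, and for the 8 members this length was 16 to 19 nt. Where along the 267 nt the SBH2 reads lay is not held in the totals analysed here.

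SBH1 itself had 29.8, 32.5 and 41.6 CPM in DUS KO and 26.3, 30.05 and 46.7 CPM in WT. The groups overlapped, and replicate 3 was the highest library in each. Its log2 fold change was -0.02 (standard error 0.31, 95% interval -0.69 to 0.65, adjusted p = 0.992 in edgeR's test) and changed sign with the scaling, to 0.14 with total counts alone.

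SSS1 (YDR086C; chromosome IV, 616928 to 617170, minus strand; 243 nt) encodes the small subunit that both pores use. It had 144, 138 and 154 CPM in DUS KO and 135, 178 and 105 CPM in WT, so that the DUS KO libraries fell inside the range of WT. The log2 fold change was 0.06 (standard error 0.21, 95% interval -0.40 to 0.53, adjusted p = 0.971 in edgeR's test), and it was -0.11 without WT replicate 3. The ratio of SBH2 to SSS1 in TPM was 16.6, 16.4 and 16.4 in DUS KO and 15.4, 9.87 and 15.3 in WT, with WT replicate 2 apart from the others.

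SEC61 (YLR378C; chromosome XII, 875736 to 877178, minus strand; 1443 nt) had 38.1, 53.1 and 52.0 CPM in DUS KO and 43.4, 48.6 and 96.8 CPM in WT. The DUS KO libraries lay near WT replicates 1 and 2, and WT replicate 3 was high. The log2 fold change of -0.42 (standard error 0.32, 95% interval -1.11 to 0.28, adjusted p = 0.789 in edgeR's test) rested on that library and became 0.04 without it. It was 0.11 with WT replicate 1 as the only WT library. Whole counts were found for SEC61 in only 1 of the 6 libraries. In a search of 1318 features whose counts were not whole, YLR379W, a feature of 375 nt outside the RefSeq annotation, was the only one whose counts added to those of SEC61 as whole numbers in every library, within 0.02. Together they had 248, 173 and 35 counts in DUS KO and 229, 295 and 477 in WT. Summed, the log2 fold change was -0.56 (adjusted p = 0.648 in edgeR's test). WT replicate 3 had the highest sum here too, and the summed fit was not run without that library.

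**Figure D2:**
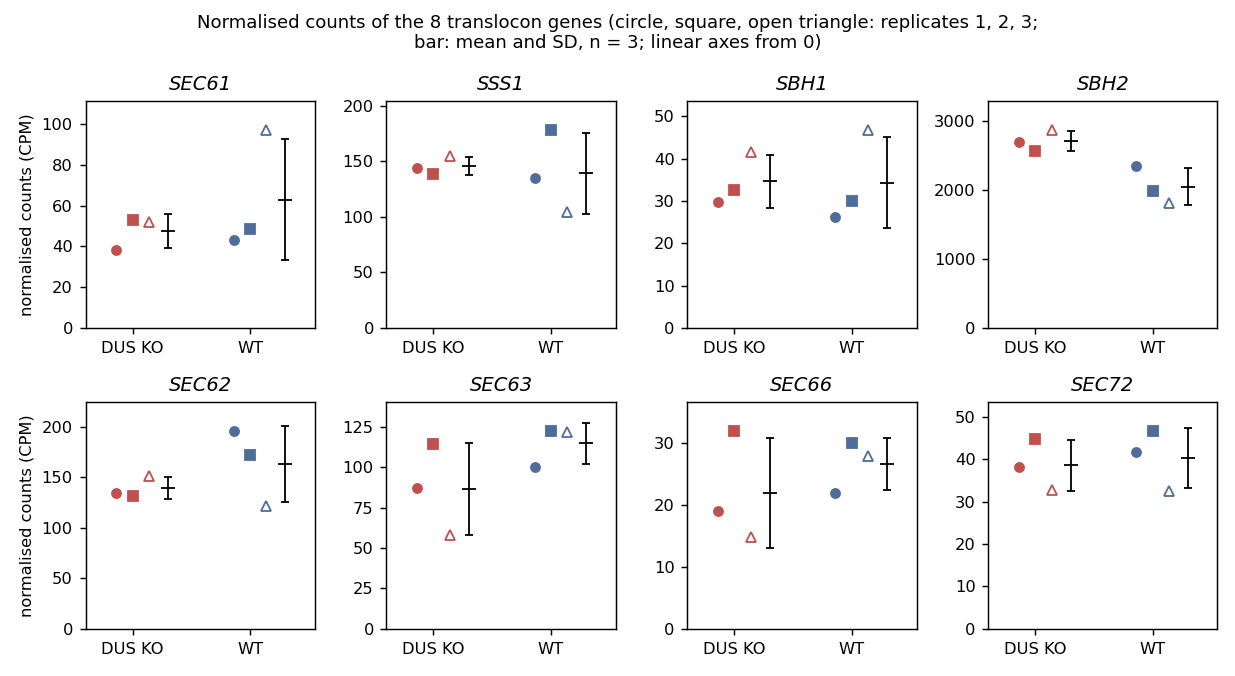
Normalized counts (CPM, linear axes from 0) of each translocon gene, 1 point per library by replicate, with the mean and SD of 3 beside them and DUS KO left of WT. In SBH2 the DUS KO libraries, at 2565 to 2857, lie above the WT libraries, at 1811 to 2342, and in each of the other 7 genes the groups overlap.

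SEC63 (YOR254C) lies on the minus strand of chromosome XV, 805032 to 807023, with 1 coding exon of 1992 nt. It is the only member with an entry in the study's supplementary list of D sites in mRNA, a list that came from D-seq, in which reverse transcription stops just 3′ of a reduced D. On the nuclear chromosomes that list holds 129 sites, and the base that precedes the listed position on the sense strand is T in R64 at 129 of them, against 23 at the listed position itself. For SEC63 this base, the U that would be modified, is at 805086, which is nt 1938 of the coding sequence and the third base of codon 646 of 663, a GAT codon for aspartate. The surrounding 30 nt are shown with that base in capitals.
SEC63, chrXV:805072-805101: aagtgatgctagcgaTtatactgatatcga
The site is 54 nt before the end of the coding sequence and thus near the 3′ end of a long message. The D-seq libraries were not analysed here, and the RNA-seq values that follow measure the level of the transcript, not its modification.

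SEC63 had 87.2, 114 and 57.9 CPM in DUS KO and 100.1, 122 and 122 CPM in WT. DUS KO replicates 1 and 3 lay below all WT libraries, and replicate 2 lay among them. The means were 86.5 ± 28.2 CPM in DUS KO and 115 ± 12.7 CPM in WT (SD, n = 3 each). The log2 fold change was -0.37 (standard error 0.24, 95% interval -0.90 to 0.15, adjusted p = 0.728 in edgeR's test). All 19 alternatives were below 0 as well, and their adjusted p ran between 0.490 and 0.997, but its size moved with single DUS KO libraries, to -0.19 without replicate 3, where SEC63 had only 39 counts, and to -0.63 without replicate 2. On log2(TPM + 1) it was -0.14. No difference in the level of this transcript passed the test, and the interval runs from 0.538 to 1.11 times the WT level.

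SEC62 (YPL094C; chromosome XVI, 369839 to 370663, minus strand; 825 nt), the partner of Sec63 in post-translational import, had 135, 131 and 152 CPM in DUS KO and 196, 172 and 122 CPM in WT. The DUS KO libraries lay between WT replicates 2 and 3. Its log2 fold change was -0.24 (standard error 0.21, 95% interval -0.69 to 0.22, adjusted p = 0.826 in edgeR's test) and was 0.10 on log2(TPM + 1). It was -0.090 without WT replicate 1 and -0.41 without WT replicate 3. With WT replicate 1 as the only WT library it was -0.51 (adjusted p = 0.350). The ratio of SEC62 to SEC63 in TPM was 3.90, 2.90 and 6.60 in DUS KO and 4.93, 3.56 and 2.52 in WT, and the groups overlapped.

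SEC66 and SEC72 encode the non-essential subunits of this complex. SEC66 (YBR171W; chromosome II, 578364 to 578984, plus strand; 621 nt) had 113, 99 and 10 counts in DUS KO and 96, 149 and 124 in WT, or 19.0, 31.9 and 14.9 CPM in DUS KO and 22.0, 30.05 and 27.8 CPM in WT. DUS KO replicate 2 was the highest of the 6 libraries and replicate 3 the lowest. The log2 fold change was -0.23 (standard error 0.35, 95% interval -0.995 to 0.53, adjusted p = 0.914 in edgeR's test), the widest interval among the 8 members. It was -0.62 without DUS KO replicate 2 and -0.076 without DUS KO replicate 3. SEC72 (YLR292C; chromosome XII, 719789 to 720370, minus strand; 582 nt) had 38.2, 44.8 and 32.7 CPM in DUS KO and 41.7, 46.6 and 32.5 CPM in WT. These groups overlapped almost fully, with a log2 fold change of -0.04 (standard error 0.27, 95% interval -0.63 to 0.54, adjusted p = 0.983 in edgeR's test) that was 0.16 with total counts alone. SEC72 was 2.16, 1.51 and 2.36 times SEC66 by TPM in DUS KO and 2.04, 1.67 and 1.26 times in WT.

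**Figure D3:**
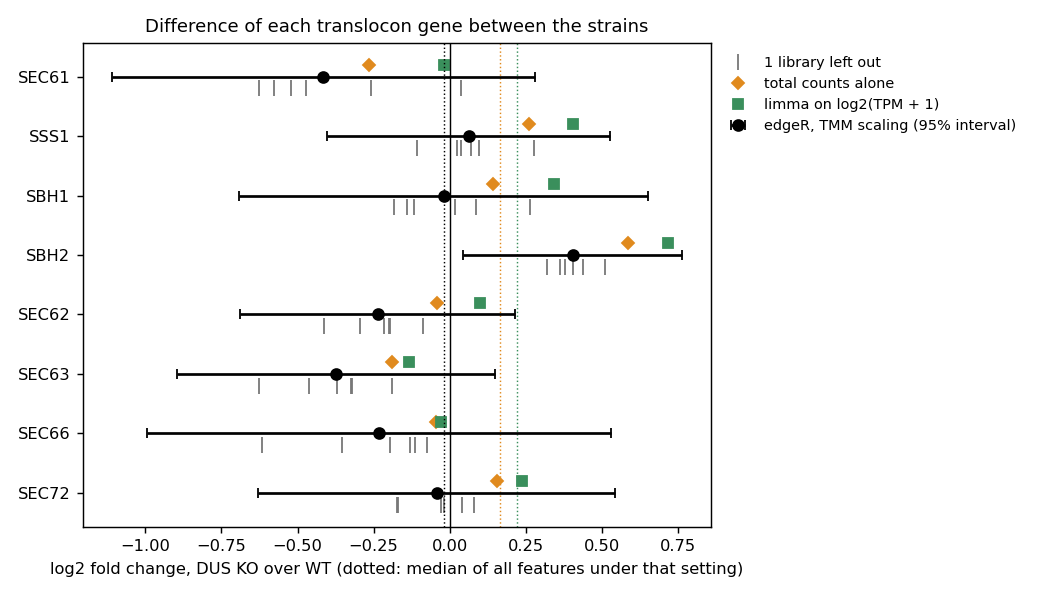
Log2 fold change of DUS KO over WT for each translocon gene from edgeR with TMM scaling and its 95% interval (black), with 1 library left out (grey ticks), with total counts alone (orange) and on log2(TPM + 1) (green), and the median of all features under each setting (dotted). SBH2 is above 0 in each of them and SEC63 and SEC66 are below 0, while SEC61, SSS1, SBH1, SEC62 and SEC72 cross 0 under at least 1 setting shown.

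The partners of the translocon were read from the same test as a list of 51 genes, all of which were kept by the count filter. At the adjusted threshold edgeR called 0 of them, and DESeq2 called 0 of the 24 to which it gave an adjusted p. Limma-voom, which called 0 of all features, called 0 here too. At an unadjusted p under 0.05, edgeR found 2 higher in DUS KO, OST4 and SRP72, and 0 lower, beside 3.33% higher and 4.93% lower over all features tested. The median log2 fold change of the 51 was -0.00096, with 25 above 0 and 26 below, beside -0.02 over all features. With total counts alone it was 0.18, beside 0.16 over all features. On log2(TPM + 1) it was 0.31, with 41 above 0, where the median of all features was also above 0, at 0.22. The values that follow are those of all 6 libraries under TMM scaling, and signs that turned without some of the WT libraries are given with them.

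KAR2 (YJL034W), the lumenal HSP70 that Sec63 recruits, had 166, 170.4 and 172 CPM in DUS KO and 194, 165 and 284 CPM in WT. The groups overlapped, and WT replicate 3 was high, as it was for SEC61. With a standard error of 0.21, its log2 fold change was -0.34 (adjusted p = 0.724 in edgeR's test), and it was 0.0049 on log2(TPM + 1) and -0.08 without WT replicate 3. The other 4 genes of the group of lumenal HSP70s and their helpers also had negative values, from -0.50 in SIL1, a nucleotide exchange factor, to -0.18 in LHS1, with 0 of 5 called. The gene at the median was JEM1, with a standard error of 0.83. It had only 47, 20 and 0 counts in DUS KO and 11, 49 and 46 in WT. The median of the 5 was -0.47, and -0.29 with total counts alone and -0.09 on log2(TPM + 1), where 2 of the 5 were above 0. It moved to -0.17 without WT replicate 2 and to -0.21 without WT replicate 3, and was -0.20 with WT replicate 1 as the only WT library. In this group LHS1 turned to 0.16 without WT replicate 2 and to 0.53 with WT replicate 1 alone, and SIL1 was at -0.13 without WT replicate 2.

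SSH1, the channel protein that pairs with Sbh2, had 239.9, 206 and 230.2 CPM in DUS KO and 237, 193 and 209 CPM in WT, which gave 0.08 ± 0.18 (log2 fold change and standard error, with an adjusted p of 0.947 in edgeR's test). It was -0.076 with WT replicate 1 as the only WT library. SBH2, of 267 nt against 1473 nt for SSH1, exceeded it by 76.3, 84.6 and 84.3 times in TPM in DUS KO. In WT it did so by 67.3, 70.0 and 58.9 times.

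Among the genes that deliver proteins to the ER membrane, the 8 of the signal recognition particle (SRP) and its receptor ran from -0.40 in SRP14 to 0.57 in SRP72, and the 9 of the GET and SND routes from -0.35 in SND1 to 0.32 in GET3. SND1 rested on single WT libraries, with -0.68 without replicate 2 and -0.094 without replicate 3. SRP72, which encodes a core subunit of the particle, had 50.3, 50.6 and 63.9 CPM in DUS KO and 33.9, 30.7 and 45.1 CPM in WT (unadjusted p = 0.0499, adjusted p = 0.603 in edgeR's test). Of genes that act on chains as they emerge in the lumen, signal peptidase ran from -0.29 in SPC2, which was 0.12 without WT replicate 2, to 0.39 in SPC1, which was 0.20 without WT replicate 3. Oligosaccharyltransferase, which attaches N-glycans, ran from -0.45 in WBP1 to 1.14 in OST4. OST4, a small subunit with a coding length of 111 nt, had 85, 69 and 12 counts in DUS KO and 33, 40 and 40 in WT, and its value of 1.14 (standard error 0.42) had an adjusted p of 0.489 in edgeR's test and passed the threshold only on log2(TPM + 1). The EMC, a membrane protein insertase, ran from -0.15 in EMC5 to 0.51 in EMC2. EMC5 was 0.0056 without WT replicate 1, and EMC2 ran between 0.11 without WT replicate 2 and 1.28 without WT replicate 1 and was -0.42 with WT replicate 1 alone. Genes of the unfolded protein response, which ER stress induces, ran from -0.81 in CNE1, which was -1.39 without DUS KO replicate 2, to 0.40 in EUG1. The counts of EMC2 and CNE1 were not whole in any library, so reads on them were divided with other features.

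**Figure D4:**
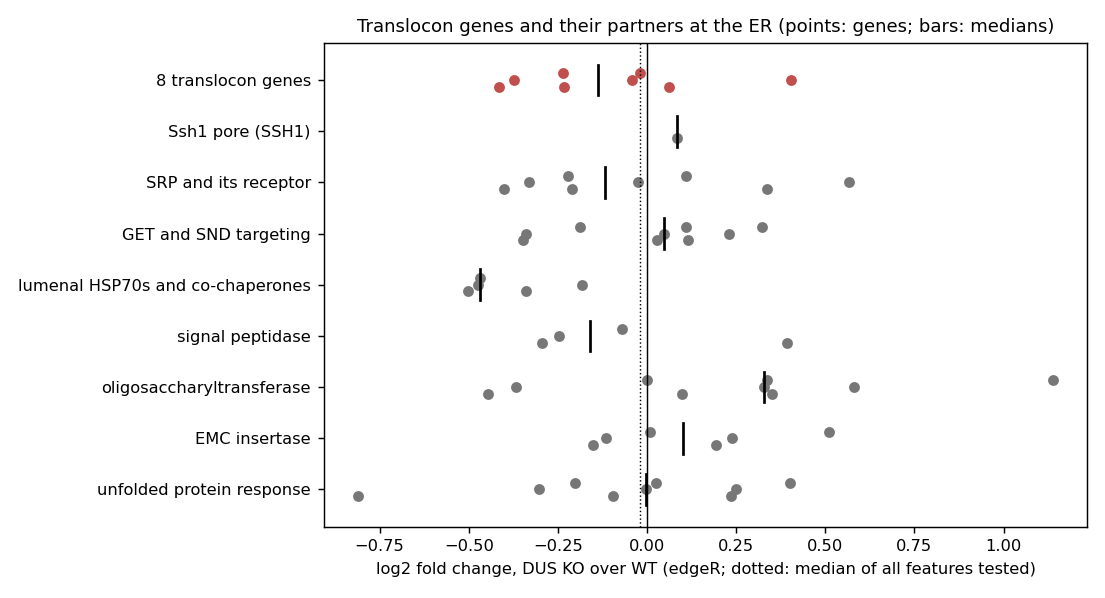
Log2 fold change of DUS KO over WT from edgeR for the 8 translocon genes and the 51 partner genes by group, with 1 point per gene, a bar at each median and a dotted line at the median of all features tested. The groups lie on either side of 0, the 5 lumenal HSP70s and helpers are all below it with all 6 libraries under TMM scaling (2 of 5 are above it on log2(TPM + 1), 1 of 5 without WT replicate 2 and 2 of 5 with WT replicate 1 alone), and no gene shown passed the adjusted threshold in this test.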

How the data were processed

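RNA-seq of 3 DUS KO and 3 WT libraries was analysed, and the 6 D-seq libraries were not. RNA-seq libraries left out the borohydride step of D-seq and kept full-length cDNA. The study's methods name, for its sequencing as a whole, bbduk for trimming, dedupe for UMI duplicates and bbmap for sacCer3. No source used here names the program behind the estimated counts. The authors deposited estimated counts, which are not normalized, and TPM values, which are scaled by the effective length of a feature and to a fixed total. Of 5917 features with a coding sequence in R64, 5908 have the same length there.

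Estimated counts were rounded, filtered with filterByExpr (5884 of 6612 features kept) and scaled by TMM. The strains were compared with edgeR's quasi-likelihood test (edgeR 4.0.16, limma 3.58.1, DESeq2 1.42.0, R 4.3.3), with p-values adjusted by the Benjamini-Hochberg method over all features tested and a threshold of 0.05. Standard errors are the log2 fold change divided by the square root of F. The test was checked on simulated counts.

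Alternatives were other scalings and filters, DESeq2, limma-voom, limma on log2 TPM, a replicate block, removal of a length trend and leaving out each library in turn. The members, lists, tests and 17 alternatives were chosen with earlier results of these data known. The genes named were all members, SSH1, KAR2, the lowest and the highest gene of each partner group, and strain checks. JEM1 was named as the gene at the median of its group. The summing of SEC61 with YLR379W and the fit with WT replicate 1 as the only WT library were added after these data were seen.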

Additional observations from a re-analysis of the deposited data

How the results depend on the processing

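In the 17 alternatives and with SEC61 and YLR379W summed, 0 members were called in each. The lowest adjusted p of any member was 0.144 (SBH2, DESeq2). Over all features the share called was 4.42% in DESeq2 and at most 0.201% in the others. Among partner genes the count was 0 in all but 1 of these. On log2(TPM + 1), limma called 1 gene, OST4 (adjusted p = 0.0386), where it called 0.17% of 5884 features. The median of the 8 members was 0.17 on log2(TPM + 1), beside 0.22 over all features. On log2(TPM + 0.1) it was also 0.17, beside 0.29 over all features. Leaving out 1 library gave a members' median of -0.18 to -0.07. With WT replicate 1 as the only WT library that median was 0.078.

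Of 152 member values, 21 turned direction, none of them called, and the cause was not tested. With total counts alone SBH1 was at 0.14 and SEC72 at 0.16. On log2(TPM + 1), SBH1, SEC62 and SEC72 were at 0.34, 0.10 and 0.24, and on log2(TPM + 0.1) at 0.35, 0.10 and 0.25. Limma-voom gave 0.0014 for SEC72. Removing the length trend gave -0.069 for SSS1. With WT replicate 1 alone, SBH1, SEC61 and SEC66 were at 0.34, 0.11 and 0.058, on the assumption that this library varies as those of DUS KO do. Leaving out 1 library gave -0.18 to 0.26 for SBH1, -0.63 to 0.036 for SEC61, -0.17 to 0.078 for SEC72 and -0.11 to 0.28 for SSS1.

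Same-numbered libraries deviated from their groups with correlations over features of 0.027, -0.037 and -0.072, so the numbers were not taken as pairs. A replicate block called 0 members and 0 partner genes and gave 0.051 for SBH1. DESeq2 gave no adjusted p for SBH1, SEC66 and SEC72. DUS KO replicate 3, with 656162 counts, had 10 counts of SEC66 and 39 of SEC63.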
